A study of Mus musculus with 16 samples.

Results

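The 10 genes described here carry the IL-6, IL-1 and STAT3 signals of the hepatocyte: the receptors Il6ra, Il6st, Osmr and Lifr, the transcription factor Stat3, the feedback inhibitors Socs3 and Socs1, the IL-1 receptor chains Il1r1 and Il1rap, and the IL-1 receptor antagonist Il1rn. They were picked out of the table by gene symbol and are 10 of the 55450 genes quantified. The set was chosen with earlier results of these data known, so setting it beside all genes is a description. All 10 averaged at least 1 CPM, counts scaled to the library's size, and so belonged to the 11675 genes tested. Bulk RNA-seq covered cultured hepatocytes from wild-type mice in 4 groups of 4 libraries each. The untreated cells were kept overnight in culture medium. The other groups received 10 mM itaconate, a lipid mixture diluted 10-fold, or both agents together. The lipid mixture is chemically defined and holds free fatty acids and cholesterol, and itaconate is a metabolite that activated macrophages make from cis-aconitate. Cells of every group had been taken from digested livers and plated, so the untreated group is cultured and not freshly isolated tissue. The libraries of a group are named by the replicate letters A to D, and nothing in the labels says that these came from separate animals, so p-values measure the spread between these samples, which may be technical.

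In the liver, IL-6 binds its own receptor chain and then the shared chain gp130, encoded by Il6st. Oncostatin M and leukaemia inhibitory factor reach the same chain through the products of Osmr and Lifr. Janus kinases bound to gp130 phosphorylate STAT3, which enters the nucleus and induces acute phase genes together with Socs3, whose product shuts the receptor off again. IL-1 acts on Il1r1 with its accessory chain Il1rap through MYD88 and NF-κB, and the antagonist from Il1rn competes with IL-1 for Il1r1. Hepatocytes are the main source of acute phase proteins when both cytokines reach the liver.

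STAT proteins bind a palindrome whose letters are TTCNNNGAA, which was searched for in the RefSeq promoter windows of the mouse (GRCm38.p6), each 250 bases before to 50 bases after a gene's start. The 10 genes had 14 such windows, and 1 of them, that of Socs3, held the motif. It was found in 8.3% of all 32851 windows and in 9.55% of 27025 genes, so 1 gene of 10 is near that background. The palindrome reads the same on both strands and was searched alone, with no other motif to overlap. The 250 bases before the start are shown for Socs3, with the motif in capitals, and for Stat3 and Il1r1, the members with the smallest p-values under lipid, neither of which held the motif in a window. For Il1r1, which has 2 windows, the one at the gene's outermost start is shown. Socs3 and Il1r1 are also the genes that differed with itaconate in the presence of lipid.
Socs3, chr11:117969367-117969616, minus strand: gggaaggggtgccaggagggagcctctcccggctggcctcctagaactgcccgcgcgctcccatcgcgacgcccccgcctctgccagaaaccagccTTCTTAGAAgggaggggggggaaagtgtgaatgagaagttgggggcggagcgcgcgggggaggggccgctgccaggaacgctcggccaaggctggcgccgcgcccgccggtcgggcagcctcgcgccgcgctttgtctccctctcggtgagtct
Stat3, chr11:100939541-100939790, minus strand: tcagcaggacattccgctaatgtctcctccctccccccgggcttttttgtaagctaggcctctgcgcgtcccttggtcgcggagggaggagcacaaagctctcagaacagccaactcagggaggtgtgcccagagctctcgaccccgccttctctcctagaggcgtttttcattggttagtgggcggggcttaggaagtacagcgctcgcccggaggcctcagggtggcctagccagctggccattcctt
Il1r1, chr1:40224830-40225079, plus strand: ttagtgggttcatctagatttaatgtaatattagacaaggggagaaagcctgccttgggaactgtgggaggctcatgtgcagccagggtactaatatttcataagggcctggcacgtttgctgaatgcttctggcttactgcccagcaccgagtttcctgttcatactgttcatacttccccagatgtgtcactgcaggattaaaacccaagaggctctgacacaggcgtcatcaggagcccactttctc
The motif TTCTTAGAA begins 154 bases before the RefSeq start of Socs3. That start lies 180 bases from the nearest coding transcript start of GENCODE, so the motif's distance depends on the annotation. The Socs3 bases shown lie inside the GENCODE gene, and 77 of the window's 300 bases are exon there. Those of Stat3 and Il1r1 lie just outside the gene and end at a start that both annotations give. The RefSeq start of Osmr lies 656 bases from its nearest coding transcript start, and all 300 bases of its window are exon. That window does not cover the coding start, so the count of Osmr as a gene without the motif depends on the annotation too. A match is a run of letters and says nothing of whether STAT3 was bound there in these cells.

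The depth of the libraries was 22346049 to 35512004 expected counts (median 27719372), and 3.27 to 6.01% of counts were mitochondrial. By correlation over all genes tested no library stood far from its group, with a median of 0.984 to 0.991 with the others. Lipid + itaconate replicate C had the highest mitochondrial share (6.01%) and the lowest sum of hepatocyte markers (28628 CPM). Hepatocyte markers (Alb, Ttr, Apoa1, Hnf4a, Tat and Cyp2e1) summed to 28628 to 51490 CPM, high in every library. Lipid against untreated lowered Alb (log2 fold change −0.18 ± 0.057, edgeR adjusted p = 0.0142) and Ttr (−0.20 ± 0.063, adjusted p = 0.0151). Apoa1, Tat and Cyp2e1 were lower and Hnf4a higher without passing, where 23.7% of all genes were called lower and 23.8% higher. Markers of neutrophils and T cells were near 0, with sums of at most 0.237 and 0.105 CPM. Macrophage markers were present at 168 to 337 CPM, most of it Cd68, a lysosomal protein. Without Cd68, a split chosen after its level was seen, the other 10 macrophage markers summed to 43.8 to 62.9 CPM in untreated cells, 43.4 to 66.0 CPM with itaconate, 28.3 to 43.0 CPM with lipid and 24.5 to 41.2 CPM with both. Sox9, the marker that carried the cholangiocyte sum, was lower with lipid too (log2 fold change −0.37 ± 0.056 against untreated), and 6 of 7 stellate cell markers averaged under 1 CPM over the 16 libraries. No marker was at 0 in every library.

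Stat3 and Il6st were the most abundant of the 10 genes per length of exon, at means of 25.7 and 19.5 CPM per kb over the 16 libraries. Il1r1 followed at 12.5 and Socs3 at 9.58 CPM per kb. Lifr (6.36), Il1rap (5.04) and Il1rn (3.81 CPM per kb) lay in the middle of the order. Il6ra, at 2.00 CPM per kb, and Osmr, at 1.99, were level by this measure, and Socs1 was lowest at 0.614 CPM per kb. The gp130 chain was thus many times more abundant at the RNA level than the IL-6 receptor chain, with a ratio of Il6st to Il6ra per kb of 10.7 ± 1.19 (SD, n = 4) in untreated cells. The order and the ratios between genes depend on the lengths used, which are unions of all annotated exons. In CPM without length, Osmr (mean 24.1) was above Il6ra (17.2).

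RNA of IL-6, oncostatin M, IL-11 and both forms of IL-1 was scarce in the cultures. Il6 had 0 to 3 expected counts in a library, Osm 0 to 1, Il1b 0 to 5, Il11 1 to 9 and Il1a 1 to 21. A count of 0 in the smallest library allows a level of up to 0.141 CPM. Other ligands had more, with Lif at 1.51 to 7.09 CPM (40 to 202 counts) and the gp130 family ligands Clcf1 at 5.74 to 15.3, Cntf at 2.39 to 6.36 and Ctf1 at 1.72 to 3.55 CPM. Il33, whose receptor uses Il1rap, was at 6.95 to 24.9 CPM. Clcf1 and Cntf were added after their values were seen. Il1r2, the decoy receptor of IL-1, had 0 to 5 counts.

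Most of the 10 genes were lower with lipid. Against untreated hepatocytes, 8 of the 10 genes fell and 0 rose (edgeR quasi-likelihood test, adjusted p under 0.05), where 47.5% of all genes tested were called, 23.7% lower and 23.8% higher. The groups did not overlap for 7 of the 10, all lower, beside 15.9% of all genes lower and 16.6% higher. The median log2 fold change of the 10 was −0.60, against 0.0047 over all genes. Il6ra and Lifr were the genes that did not pass. In the presence of itaconate, lipid + itaconate-treated against itaconate-treated cells, 8 of 10 again fell and 0 rose, beside 47% called among all genes, 23.5% in each direction. For 5 of the 10, all lower, the groups did not overlap, beside 14.8% of all genes lower and 16.6% higher. Here Osmr and Lifr did not pass and Il6ra did, and the median was −0.48. The 2 lipid comparisons share no library, but they were fitted in 1 model and share the replicate letters.

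**Figure D1:**
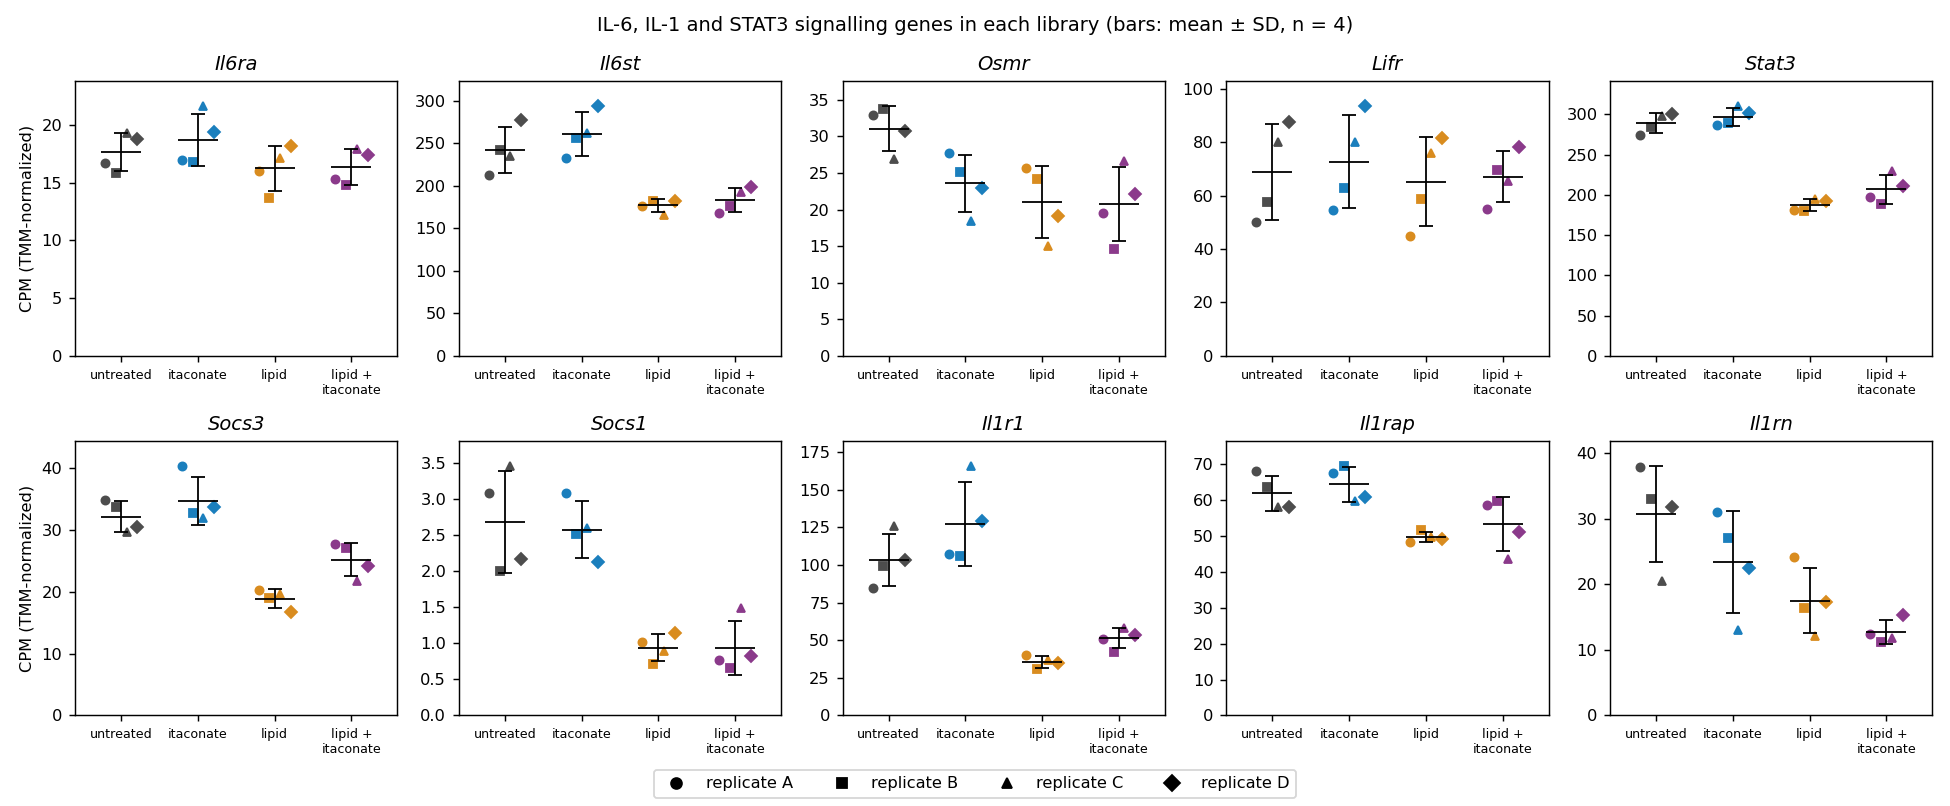
Level of each gene in each of the 16 libraries, as CPM after TMM normalization on a linear axis from 0, by treatment group; symbols mark the replicate letter and black bars the group mean ± SD (n = 4). Stat3 lay between 181 and 195 CPM in lipid-treated cells and between 274 and 301 CPM in untreated cells, while Lifr spread over 44.7 to 93.6 CPM with A low and D high in each group.

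Positions are given for the whole gene in GRCm38 (GENCODE M21). Among the receptors of the gp130 family, Il6st (chr13:112464070-112510086), the signalling chain used by all of them, fell in both lipid comparisons. Its level was 213, 242, 235 and 278 CPM in untreated replicates A to D and 177, 182, 166 and 183 CPM in lipid-treated replicates. Every lipid-treated library was below every untreated one. With itaconate the values were 232, 256, 262 and 294 CPM without lipid and 168, 177, 193 and 198 CPM with it, again without overlap. This was a log2 fold change of −0.44 ± 0.052 (SE, edgeR adjusted p = 6.43e-06) for lipid against untreated and −0.50 ± 0.052 (adjusted p = 2.49e-06) for lipid + itaconate against itaconate. With itaconate no change in Il6st passed the threshold, at 0.11 (95% interval 0.000637 to 0.22, edgeR adjusted p = 0.233) alone and 0.05 (−0.059 to 0.16, adjusted p = 0.649) with lipid.

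Il6ra (chr3:89864059-89913196), the chain that binds IL-6 itself, differed less between groups than Il6st. It was at 16.7, 15.8, 19.3 and 18.8 CPM in untreated cells, 17.0, 16.8, 21.7 and 19.4 with itaconate, 16.0, 13.7, 17.1 and 18.2 with lipid and 15.3, 14.8, 17.9 and 17.4 with both. All 4 groups overlapped. The log2 fold change was −0.12 ± 0.063 (edgeR adjusted p = 0.129) for lipid against untreated, lower in 4 of 4 letters, and −0.19 ± 0.062 (adjusted p = 0.0200) for lipid + itaconate against itaconate, also lower in 4 of 4. The second call was lost without itaconate replicate C (adjusted p = 0.0845) or lipid + itaconate replicate D (0.0510), and also without the replicate block (0.171), with no filter (0.112) and in a model of only those 8 libraries (0.0515). The ratio of Il6st to Il6ra was lower with lipid in 4 of 4 letters in both comparisons, with means of 8.58 ± 1.28 with lipid and 8.76 ± 0.400 with both agents, against 10.9 ± 1.16 in itaconate-treated cells.

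Osmr (chr15:6813577-6874969), the oncostatin M receptor chain, fell with lipid and was highest in untreated cells, at a mean of 31.1 CPM, against 20.7 to 23.6 CPM in the other groups. It was at 32.9, 33.8, 26.8 and 30.7 CPM in untreated cells, 27.8, 25.1, 18.5 and 22.9 with itaconate, 25.7, 24.2, 15.0 and 19.2 with lipid and 19.5, 14.7, 26.7 and 22.1 with both. The untreated libraries lay above the lipid-treated ones without overlap. Lipid lowered Osmr against untreated by a log2 fold change of −0.57 ± 0.167 (edgeR adjusted p = 0.0108). Itaconate alone gave −0.40 ± 0.165 (adjusted p = 0.170), lower in 4 of 4 letters, which did not pass. Once either agent was present the other gave no called change, with 0.00 ± 0.170 (95% interval −0.36 to 0.37) for lipid + itaconate against lipid and −0.16 ± 0.168 (−0.52 to 0.19) against itaconate. Both values rest on lipid + itaconate replicate C, the highest library of its group. Without that library they were −0.25 (edgeR adjusted p = 0.209) against lipid and −0.42 (adjusted p = 0.00945) against itaconate. Against lipid, letters A to D differed by −0.40, −0.72, 0.83 and 0.20 on the log2 scale. The interaction was 0.41 ± 0.237 (adjusted p = 0.665).

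Lifr (chr15:7090614-7197489), the receptor for leukaemia inhibitory factor, varied more between replicate letters than between treatments. Its group means were 68.8 ± 17.9 CPM (SD, n = 4) in untreated cells, 72.8 ± 17.5 with itaconate, 65.2 ± 16.7 with lipid and 67.1 ± 9.60 with both. Replicate A was at 50.0, 54.5, 44.7 and 55.1 CPM in those groups and replicate D at 87.7, 93.6, 81.5 and 78.2 CPM. The letter means spanned 0.74 on the log2 scale and the treatment means 0.16. Il6ra also had a wider span over letters (0.31) than over treatments (0.20), and for the other 8 genes the treatments spanned more. No comparison called Lifr, with log2 fold changes between −0.09 and 0.08 and limits of the 95% intervals that ran from −0.252 to 0.245.

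Stat3 (chr11:100885098-100939540) fell in each lipid comparison with small spread. It was at 274, 284, 298 and 301 CPM in untreated and 181, 181, 195 and 192 CPM in lipid-treated replicates A to D. In itaconate-treated cells it was at 287, 289, 310 and 302 CPM, and in lipid + itaconate-treated cells at 198, 188, 230 and 212 CPM. All 8 libraries with lipid were below all 8 without it. The log2 fold change was −0.63 ± 0.039 (edgeR adjusted p = 1.17e-08) for lipid against untreated and −0.52 ± 0.039 (adjusted p = 1.47e-07) for lipid + itaconate against itaconate. For lipid + itaconate against lipid it was 0.14 ± 0.039 (adjusted p = 0.0652), higher in 4 of 4 letters with overlapping groups, and did not pass, although DESeq2 called it (adjusted p = 0.0229).

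Socs3 (chr11:117966079-117970047), the feedback inhibitor that STAT3 induces and that blocks gp130, fell with lipid and was higher when itaconate was added to lipid. Its 4 untreated libraries were at 34.8, 33.6, 29.6 and 30.5 CPM and its lipid-treated libraries at 20.2, 18.9, 19.7 and 16.6 CPM. Lipid + itaconate-treated libraries stood in between at 27.7, 27.0, 21.8 and 24.2 CPM, above every lipid-treated library and below every untreated one. Itaconate-treated libraries were at 40.3, 32.7, 31.9 and 33.6 CPM. The log2 fold change was −0.77 ± 0.066 (edgeR adjusted p = 2.96e-07) for lipid against untreated and −0.46 ± 0.064 (adjusted p = 3.63e-05) for lipid + itaconate against itaconate.

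Lipid + itaconate against lipid gave 0.41 ± 0.066 for Socs3 (edgeR adjusted p = 0.00501), a 1.33-fold higher level in 4 of 4 letters, where 1.32% of all genes were called higher. Itaconate against untreated gave 0.11 ± 0.063 (adjusted p = 0.342), higher in 3 of 4 letters. The difference between these effects, the interaction, was 0.31 ± 0.092 with an unadjusted p of 0.00432 and an adjusted p of 0.348, so a larger effect of itaconate with lipid than without it did not pass the correction. The call with lipid was kept with each library left out in turn (adjusted p 0.00143 to 0.0284) and was lost without the replicate block (0.124) or in a model of those 8 libraries alone (0.197). Per kb of exon, the ratio of Socs3 to Stat3 was 0.333 ± 0.0351 (SD, n = 4) with lipid and 0.406 ± 0.0756 with both agents, higher in 3 of 4 letters and overlapping.

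Socs1 (chr16:10782240-10785536), a second inhibitor of Janus kinases that interferon also induces, was scarce and fell to 0.361 times its untreated level with lipid. It was at 3.09, 2.00, 3.47 and 2.18 CPM in untreated and 1.02, 0.715, 0.892 and 1.15 CPM in lipid-treated replicates. Itaconate-treated cells had 3.08, 2.51, 2.60 and 2.13 CPM, and lipid + itaconate-treated cells 0.769, 0.655, 1.49 and 0.824 CPM. The lowest library held 17 expected counts. All libraries with lipid were below all without it. The log2 fold change was −1.47 ± 0.224 (edgeR adjusted p = 7.69e-05) against untreated and −1.49 ± 0.221 (adjusted p = 7.13e-05) against itaconate. Itaconate gave −0.03 (95% interval −0.45 to 0.39) alone and −0.05 (−0.58 to 0.48) with lipid, intervals that are wide at this depth.

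Il1r1 (chr1:40225080-40317257), the signalling receptor of IL-1, had the largest fall of the 10 genes with lipid against untreated. Its level was 84.7, 99.0, 126 and 103 CPM in untreated and 40.2, 30.5, 37.1 and 35.0 CPM in lipid-treated replicates. That is 0.348 times the untreated level (log2 fold change −1.52 ± 0.094, edgeR adjusted p = 1.00e-08). Itaconate-treated libraries had 107, 106, 166 and 129 CPM and lipid + itaconate-treated libraries 51.0, 42.3, 58.4 and 53.4 CPM, a log2 fold change of −1.30 ± 0.091 (adjusted p = 8.20e-08). No library with lipid reached any library without it.

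Il1r1 rose with itaconate in the presence of lipid. Its log2 fold change was 0.52 ± 0.094 (edgeR adjusted p = 0.0122), a 1.43-fold higher level in 4 of 4 letters with no overlap of the groups. With itaconate alone it was 0.29 ± 0.089 (adjusted p = 0.0725), also in 4 of 4 letters, which did not pass. The interaction was 0.23 ± 0.129 (adjusted p = 0.656). The call with lipid was lost without lipid + itaconate replicate A (adjusted p = 0.0646), without lipid replicate D (0.0502) and without the replicate block (0.232). Endothelial markers, which belong to cells that also carry this receptor, summed to 13.1 to 22.6 CPM in lipid-treated and 11.2 to 20.4 CPM in lipid + itaconate-treated cells, and their part in the value was not tested.

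Il1rap (chr16:26581704-26730117), the accessory chain that IL-1, IL-33 and IL-36 receptors share, fell less than Il1r1. It was at 68.0, 63.6, 58.0 and 57.9 CPM in untreated cells, 67.4, 69.6, 59.6 and 60.7 with itaconate, 48.4, 51.5, 49.7 and 49.1 with lipid and 58.7, 59.8, 43.6 and 51.0 with both. The lipid-treated libraries were all below the untreated ones, while lipid + itaconate replicate B reached the range of the itaconate-treated cells. On the log2 scale the change was −0.31 ± 0.060 (edgeR adjusted p = 0.000570) against untreated and −0.28 ± 0.059 (adjusted p = 0.00143) against itaconate. The ratio of Il1r1 to Il1rap per kb was lower with lipid, going from 3.02 ± 0.692 (SD, n = 4) in untreated to 1.29 ± 0.176 in lipid-treated cells and from 3.58 ± 1.04 in itaconate-treated to 1.77 ± 0.483 in lipid + itaconate-treated cells, with no overlap in either.

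Il1rn (chr2:24336853-24351494), the receptor antagonist, fell with lipid. It was at 37.9, 33.0, 20.5 and 31.8 CPM in untreated cells, 31.0, 27.1, 13.1 and 22.5 with itaconate, 24.2, 16.4, 12.2 and 17.3 with lipid and 12.5, 11.2, 11.8 and 15.3 with both. Replicate C was lowest in 3 of 4 groups, and the groups overlapped although each letter was lower with lipid. Lipid gave a log2 fold change of −0.82 ± 0.139 (edgeR adjusted p = 0.000204) against untreated and −0.83 ± 0.143 (adjusted p = 0.000267) for lipid + itaconate against itaconate. Itaconate gave −0.41 ± 0.136 (adjusted p = 0.0937) alone and −0.42 ± 0.145 (adjusted p = 0.139) with lipid, each lower in 4 of 4 letters, and neither passed. Without lipid + itaconate replicate C, which is in neither group of the first comparison, these became −0.42 (adjusted p = 0.0230) and −0.59 (adjusted p = 0.0118). With each library left out in turn, itaconate alone gave −0.51 to −0.30 (adjusted p 0.0230 to 0.320). With lipid present it gave −0.59 to −0.27 (adjusted p 0.0118 to 0.447).

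Set against its receptor, the antagonist was lower with itaconate in every letter. The ratio of Il1rn to Il1r1 per kb was 0.514, 0.383, 0.187 and 0.353 in untreated and 0.333, 0.293, 0.0906 and 0.200 in itaconate-treated replicates A to D. In lipid-treated cells it was 0.692, 0.617, 0.378 and 0.569, and in lipid + itaconate-treated cells 0.281, 0.305, 0.232 and 0.330, without overlap. The groups without lipid overlapped, with replicate C the lowest of each. These ratios combine genes whose own values had been seen and are given as a description, with no test.

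**Figure D2:**
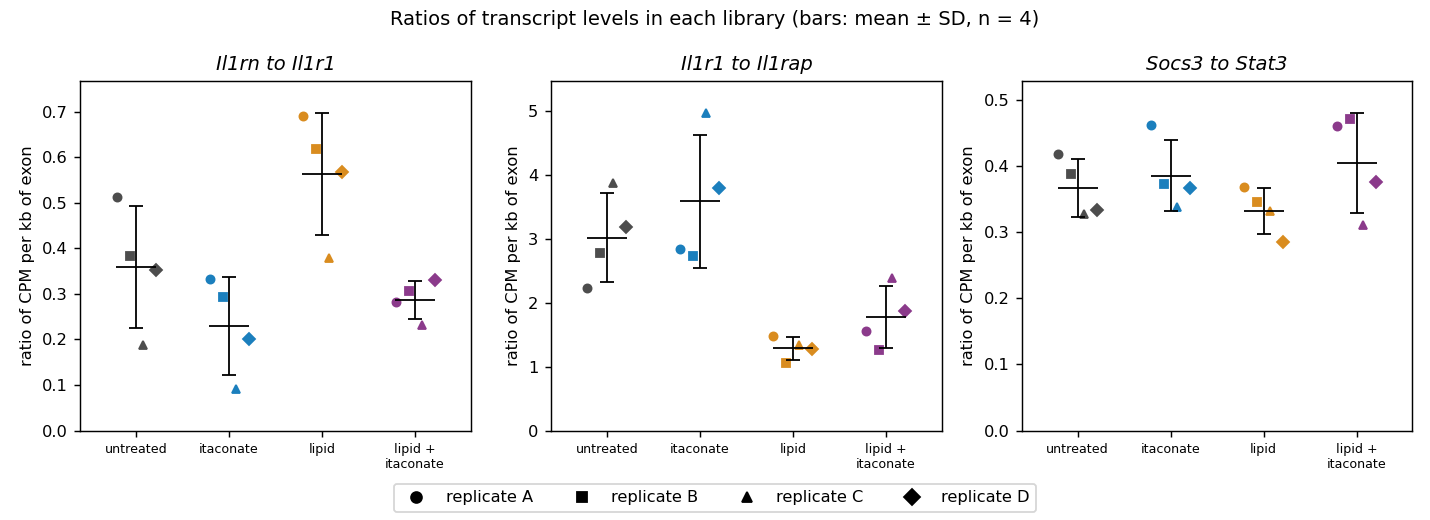
Ratios of CPM per kb of exon in each library for 3 pairs of genes, on linear axes from 0; symbols mark the replicate letter and black bars the mean ± SD (n = 4). The ratio of Il1rn to Il1r1 was 0.378 to 0.692 with lipid and 0.232 to 0.330 with both agents.

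For itaconate alone, 0 of the 10 genes passed in edgeR, where 4.91% of all genes were called (2.95% lower and 1.96% higher), and 4 of the 10 had an unadjusted p under 0.05. The groups overlapped for all 10, where 3.86% of all genes had groups apart downwards and 3.67% upwards. DESeq2 called 2 (Il1r1 and Il1rn), beside 791 of 11448 genes. A model of only those 8 libraries called 4 (Il6st, Osmr, Il1r1 and Il1rn), beside 1865 of 11623 genes. Leaving out lipid + itaconate replicate C, in neither group but part of the shared model, gave 3 calls (Osmr, Il1r1 and Il1rn). Over all genes the calls then rose from 573 of 11675 to 1047 of 11679. Leaving out lipid replicate A gave 1 (Il1r1), beside 583 of 11676 genes. For lipid + itaconate against lipid, 2 of 10 passed, Socs3 and Il1r1, both higher, beside 2.58% of all genes (1.32% higher and 1.26% lower). No library of the lipid + itaconate group overlapped the lipid group for those 2, where 2.96% of all genes had groups apart in that direction and 2.85% in the other. The number called was 1 without lipid + itaconate replicate A (beside 59 of 11687 genes) or lipid replicate D (85 of 11671). It was 3 without lipid + itaconate replicate C or with no filter, where Il1rn joined as lower. Over all genes these called 889 of 11679 and 725 of 25152, against 301 of 11675. DESeq2 also called 3, with Stat3 joining as higher, beside 509 of 11222 genes. The interaction called 0 of 10 in edgeR, with 1 at an unadjusted p under 0.05, and 1 gene of all 11675 (0.00857%); DESeq2 called 0 of the 10 as well.

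**Figure D3:**
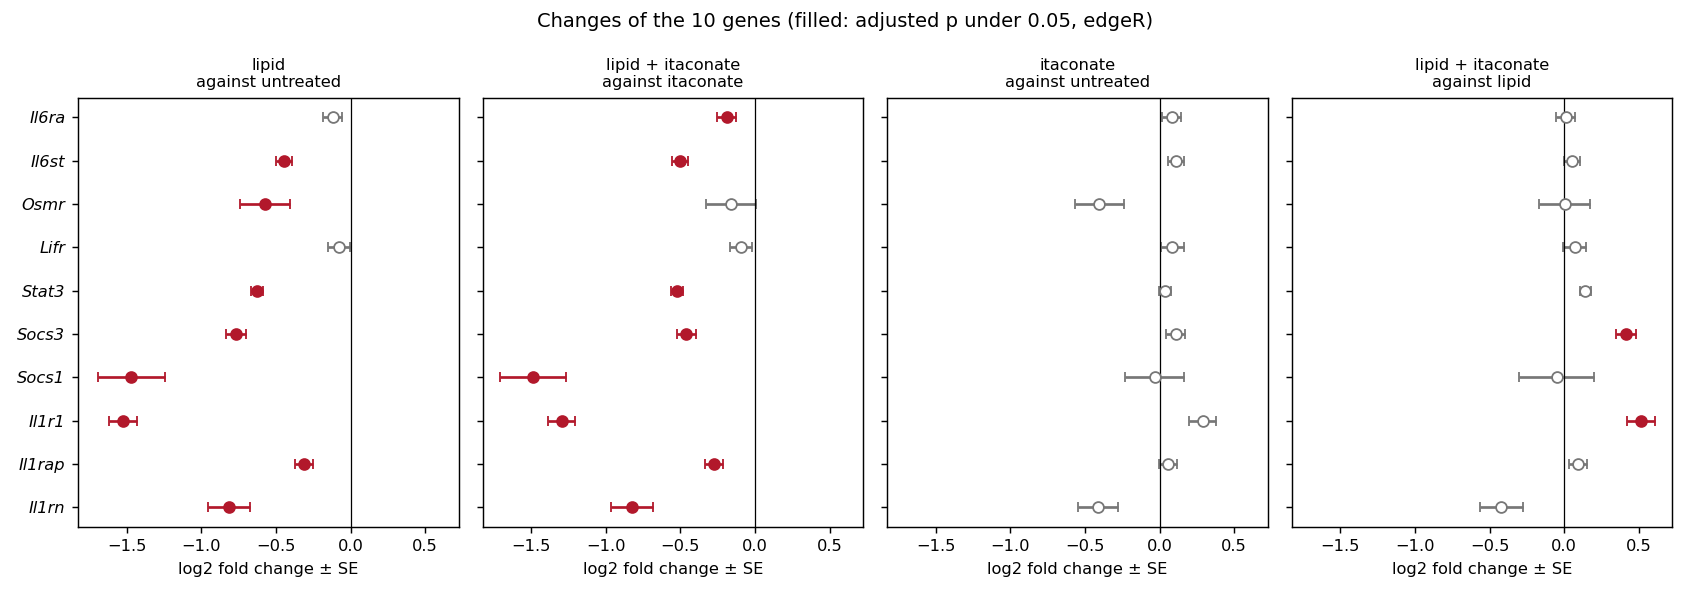
Log2 fold change of each gene with its standard error in the 4 comparisons, from edgeR's model of all 16 libraries; filled red points had an adjusted p under 0.05. In each of the lipid comparisons 8 of 10 points are filled, all to the left of 0, and with itaconate the filled points are Socs3 and Il1r1 in the presence of lipid.

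Across the whole set, 5 of the 10 genes (Il6st, Stat3, Socs3, Socs1 and Il1r1) had all 8 libraries with lipid below all 8 without it, where 6.88% of genes tested did. The lower values came with lower macrophage markers: 6 of the 10 macrophage markers tested fell with lipid against untreated (Adgre1, C1qa, C1qb, C1qc, Cd5l and Marco) and 1, Cd68, rose. In that comparison 23.7% of all genes were called lower and 23.8% higher. With itaconate present 9 fell and Cd68 rose, beside 23.5% of all genes called in each direction. In these bulk samples fewer cells of a type and less RNA per cell cannot be told apart, and the part of macrophages in the values of the 10 genes was not tested.

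Of the wider gp130, Janus kinase and STAT pathway, 45 further genes were listed and 37 tested. Lipid against untreated lowered 13 and raised 2, with a median log2 fold change of −0.04, where 23.7% of all genes were called lower and 23.8% higher. Among the largest falls were those of Stat2, a STAT of interferon signalling (−0.60 ± 0.085, edgeR adjusted p = 4.07e-05), and Socs2, the inhibitor of growth hormone signalling (−0.43 ± 0.079). Socs7 (0.28 ± 0.072) and Ifnar1, an interferon receptor chain (0.22 ± 0.056), rose. In the presence of itaconate lipid lowered 11 and raised 9, beside 23.5% of all genes in each direction, with Socs2 (−0.69 ± 0.077) and the gp130 ligand Ctf1 (−0.54 ± 0.144) among the largest falls and the largest rises in Jak3 (0.38 ± 0.151), Pias3 (0.34 ± 0.095) and Ifnar1 (0.33 ± 0.056). Itaconate alone raised 1 gene of the list, Pias2 (0.21 ± 0.046, adjusted p = 0.0152), and lowered 1, where 4.91% of all genes were called. With lipid present it raised 0 and lowered 1, beside 2.58% of all genes.

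The IL-1 family and its receptor signalling held 37 listed genes, 33 of them in the table and 24 tested. Lipid against untreated lowered 8 and raised 4, and lipid + itaconate against itaconate lowered 10 and raised 4. Of all genes, 23.7% were called lower and 23.8% higher in the former and 23.5% each way in the latter. Il33, an alarmin of the IL-1 family, fell by the most in both (−0.98 ± 0.105 and −0.90 ± 0.102, edgeR adjusted p = 2.64e-06 and 6.10e-06). The adaptor Myd88 fell in both as well (−0.53 ± 0.069 and −0.36 ± 0.069), joined among the largest falls by Ikbkb (−0.36 ± 0.065) against untreated and by Map3k8 (−0.41 ± 0.097) against itaconate. The largest rises included Irak3, an inhibitory kinase of the pathway (0.32 ± 0.082 and 0.61 ± 0.082), and Irak2 (0.24 ± 0.048 and 0.14 ± 0.048), with Tab1 (0.29 ± 0.111) and Mapk14 (0.16 ± 0.053) in 1 comparison each. Itaconate alone lowered Il18bp, which neutralizes IL-18 (−0.54 ± 0.139, adjusted p = 0.0366), and Irak3 (−0.30 ± 0.084, adjusted p = 0.0485), and raised Tab2 (0.12 ± 0.034, adjusted p = 0.0450), beside 4.91% of all genes called. With lipid present itaconate called 0 of the 24, beside 2.58% of all genes.

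Genes listed here as STAT3-responsive in hepatocytes, acute phase genes among them, mostly fell with lipid. The list was drawn up from general knowledge with earlier results of these data known, and STAT3 activity was not tested. Of 44 listed, 42 were tested, and lipid against untreated lowered 26 and raised 4, with a median of −0.21, where 23.7% of all genes were called lower and 23.8% higher. Cebpd, a transcription factor of the acute phase (−1.41 ± 0.130, edgeR adjusted p = 6.23e-07), the metalloreductase Steap4 (−1.27 ± 0.101) and the serum amyloid Saa3 (−1.11 ± 0.067) fell by the most. Orm3 (0.93 ± 0.191) and Orm2 (0.31 ± 0.064), which encode orosomucoids, and Hamp (0.18 ± 0.061), the iron hormone hepcidin, rose by the most. In the presence of itaconate 22 fell and 2 rose, beside 23.5% of all genes each way, with Cebpd (−1.21 ± 0.127), Steap4 (−1.02 ± 0.100) and Saa3 (−1.01 ± 0.066) lowest, and Orm3 (0.84 ± 0.191) and Orm2 (0.43 ± 0.063) higher.

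Itaconate in the presence of lipid raised 6 of the 42 and lowered 1, with a median of 0.10, where 1.32% of all genes were called higher and 1.26% lower. The largest rises were those of Steap4 (0.46 ± 0.100, edgeR adjusted p = 0.0264), the survival kinase Pim3 (0.36 ± 0.046, adjusted p = 0.000876) and Apcs, the serum amyloid P component (0.31 ± 0.067, adjusted p = 0.0269). Itih3, an inter-alpha-trypsin inhibitor heavy chain, fell (−0.20 ± 0.049, adjusted p = 0.0435). Steap4 stood at 526 ± 69.3 CPM in untreated, 225 ± 75.0 with lipid and 307 ± 86.1 with both agents (SD, n = 4), and this last level was below that of untreated cells. Itaconate alone raised Pim3 (0.24 ± 0.043, adjusted p = 0.00641), from 48.6 ± 1.20 to 57.3 ± 1.56 CPM, and no other gene of the list passed, with a median of 0.08, where 4.91% of all genes were called. The interaction called 0 genes of the 3 lists. The itaconate counts moved with the processing: with lipid that of the STAT3-responsive genes ran from 1 to 14 over the alternatives tried, and with itaconate alone those of the gp130 and IL-1 lists ran from 0 to 10 and from 0 to 8.

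**Figure D4:**
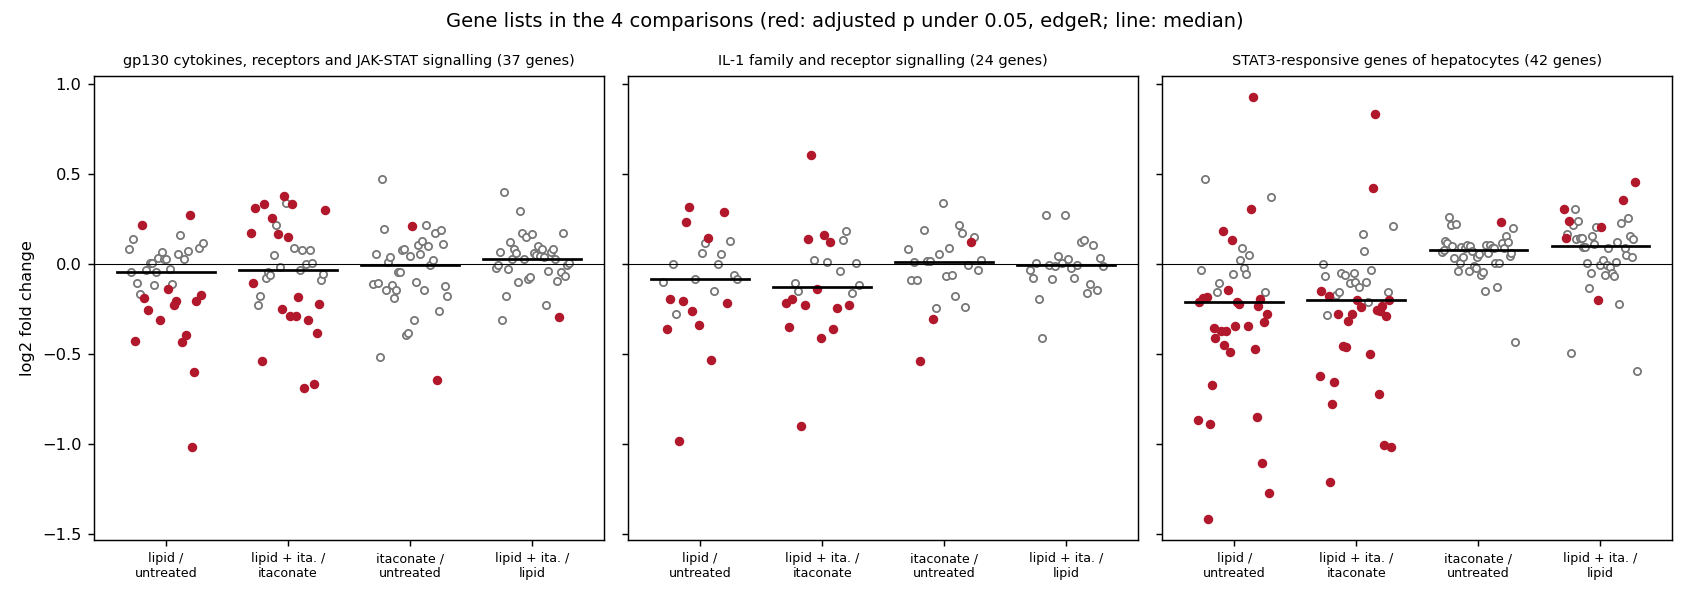
Log2 fold change of each gene of the 3 lists (one point per gene, in alphabetical order within each column) in the 4 comparisons; red points had an edgeR adjusted p under 0.05 and the black line is the median. The STAT3-responsive genes lie mostly below 0 in both lipid comparisons, with medians of −0.21 and −0.20.

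Among the 11675 genes tested, those with the pattern most like each member were found by Pearson's r of log2 CPM. It was taken over the 16 libraries after the letter means were removed. Genes with Gm or Rik names and some other provisional symbols were left out. These r values come from libraries that share treatments and depth and are a description. Il1r1 was closest to Arid5b (0.99), Sumo3 and Cdk2ap2, Stat3 to Mum1l1 (0.99), Specc1 and Akap13, and Il6st to Nfe2l2 (0.99), Pik3r1 and Luc7l. Socs3 was closest to Nfyb (0.98), Bcl9l and Mapre2, Il1rap to Pipox (0.98), Upp1 and Siah2, and Socs1 to Cd82 (0.98), Gvin1 and Lima1. For Il1rn they were Mgam (0.97), Mmab and Irf7, for Osmr Snx12 (0.96), Aida and Nfe2l1, for Il6ra C87436 (0.94), Wdr43 and Ngly1, and for Lifr Ces1c (0.93), Cyp2e1 and Serpinc1. Within the 10, Stat3 tracked Il1r1 (0.98) and Il6st (0.97) most closely, whereas Lifr and Osmr had the lowest value (−0.39).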

How the data were processed

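Bulk RNA-seq of 16 libraries was analysed. The deposited values are expected counts per gene, made by the authors with Cutadapt 1.18, STAR 2.7.0f and RSEM 1.3.1 on mm10 (names and versions from the submitters' processing notes), with no normalization, and 5.41% were not whole. All 55450 gene identifiers were found in GENCODE M21, whose GRCm38 exon unions gave the lengths behind values per kb. Expected counts were rounded, the 11675 genes averaging 1 CPM or more were kept, and edgeR 4.0.16 in R 4.3.3 fitted a quasi-likelihood model of treatment and replicate letter to all 16 libraries after TMM normalization. P-values were adjusted by Benjamini-Hochberg over all genes tested (threshold 0.05). Levels are TMM-normalized CPM. A group's SD has n = 4. A standard error (SE) is the absolute log2 fold change divided by the square root of the test's F statistic. Intervals have a confidence level of 95% and were built from that SE. The limit for a count of 0 is 3 counts and covers counting error only.

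Same-letter libraries deviated together from their group means in each of 24 pairs (r 0.144 to 0.469, median 0.263), so the letter was kept as a block. The 72 other pairs had a median of −0.114. Deviations within a group cancel out, so positive same-letter values push the other pairs below 0, and their median is no separate evidence. The pairing comes from the labels' letters, whose meaning is not given in the sources used here. All members are named, as are the list genes that passed when 6 or fewer, otherwise the 3 largest rises and falls, the receptor ligands and the 3 most similar genes per member. The lists were drawn up from general knowledge, and the members and lists were chosen with earlier results of these data known. Alternatives were no block, RLE normalization, filterByExpr, no filter, DESeq2 1.42.0, limma-trend 3.58.1, only the 8 libraries compared, and leaving out each library. The test was checked on simulated counts drawn without any replicate letter effect, so that check does not bear on the block. 1 gene of the lists is not reported here by name.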

Additional observations from a re-analysis of the deposited data

How the results depend on the processing

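Of the 10 genes under lipid against untreated, direction and call were kept in 230 of 230 results across the alternatives, and 8 genes were called in each. Under lipid with itaconate present 7 to 9 were called, and 223 of 230 results were kept. The itaconate comparisons depended on the processing, for causes that were not tested. For itaconate against untreated, 0 genes became 3 with no filter, 2 in DESeq2 and 4 with only the 8 libraries compared, and 0 to 3 with a library left out. For lipid + itaconate against lipid, 2 became 1 with only the 8 libraries compared, 3 with no filter (with Il1rn), 3 in DESeq2 (with Stat3) and 1 to 3 with a library left out. Without the replicate block, which pairs libraries by letter, 0 of the 10 were called there. The block changed 1 other call of the 10 genes, that of Il6ra under lipid + itaconate against itaconate. The interaction went from 0 to 1 with no filter (Osmr, adjusted p = 0.0346), and stayed at 0 with a library left out.

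Over all genes, the counts called without the block were 23 for itaconate against untreated, 9 for lipid + itaconate against lipid, 4149 for lipid against untreated and 3990 for lipid + itaconate against itaconate, against 573, 301, 5546 and 5483 with it. With only the 8 libraries compared they were 1865, 13, 5657 and 4782, and with no filter 1091, 725, 5643 and 5579 of 25152 genes. DESeq2 called 791, 509, 5424 and 5408. With a library left out, itaconate against untreated called 149 to 1047 genes and lipid + itaconate against lipid 59 to 889. Both were highest without lipid + itaconate replicate C. The interaction called 231 genes with no filter and 36 in DESeq2, against 1.

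The signs that reversed were of changes not called with all libraries. Osmr under lipid + itaconate against lipid was −0.019 without the block, −0.022 in limma-trend and −0.025 with 8 libraries, and the interaction of Socs1 was 0.042 without the block. With a library left out, Socs1 under itaconate ran from −0.15 to 0.093. Under lipid + itaconate against lipid, Il6ra ran from −0.021 to 0.042, Osmr from −0.25 to 0.19, Lifr from −0.012 to 0.15 and Socs1 from −0.30 to 0.15. Osmr under lipid + itaconate against itaconate ran from −0.42 to 0.018, with a call at the lower end only. The interaction ran from −0.10 to 0.065 for Lifr, −0.26 to 0.18 for Socs1, −0.026 to 0.10 for Il1rap and −0.17 to 0.14 for Il1rn. Depth limits Socs1 most, with 17 to 95 counts in a library.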
